A study of Drosophila melanogaster and Drosophila melanogaster
Drosophila virilis and Drosophila virilis with 9 samples.

Results

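Cells of 2 fruit fly species, *Drosophila virilis* and *Drosophila melanogaster*, were dissociated from stage 6 embryos and profiled together in 2 mixed-species Drop-seq libraries (replicates 1 and 2). A barcode with at least 1000 unique molecular identifiers (UMIs) was taken as a *D. virilis* cell where *D. virilis* genes held 90% or more of them, and as a *D. melanogaster* cell where *D. melanogaster* genes did. This gave 1865 and 990 *D. virilis* cells in replicates 1 and 2 (2855 in all), and 1124 and 1106 *D. melanogaster* cells (2230 in all), out of 5365 barcodes with at least 1000 UMIs in the 2 libraries and 11329 barcodes in the 7 Drop-seq libraries of the series. The features compared were the 256 genes whose symbol is the same in both species, out of 12128 *D. virilis* and 13306 *D. melanogaster* genes listed. The other *D. virilis* genes carry identifiers with no name in the sources used here and were not matched.

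The *D. virilis* embryos came from a single strain for which the labels list no transgene. The *D. melanogaster* embryos were y1 w1118 and carried the insertions P{vnd::dsRED} and, in addition, P{st.2::Gal4}. Embryos of a 1 h egg lay were aged for 3 h 30 min (*D. virilis*) or 2 h 30 min (*D. melanogaster*), hand-picked at stage 6, dissociated, passed through a 20 μm strainer and fixed in 80% methanol. One bulk mRNA-seq library of intact, unfixed embryos was made for each species, from 200 ng of poly(A)-selected RNA and without strand information. Species, strain, hours of ageing and gene annotation change together in this design, so their parts in any difference between the species cannot be told apart. The labels do not say whether the 2 Drop-seq replicates came from separate collections of embryos, so p-values measure only the spread between these libraries.

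Stage 6 is the start of gastrulation. The maternal dorsal gradient has by then divided the embryo into mesoderm, which expresses the bHLH factor *twi*, neurogenic ectoderm, which expresses the BMP inhibitor *sog*, and dorsal ectoderm, where the BMP ligand *dpp* and the homeobox gene *zen* are active. Along the other axis, maternal factors and gap genes position the stripes of the pair-rule and segment polarity genes and the domains of the Hox genes, while the pole cells at the posterior end, the germline precursors, keep maternal mRNAs such as *nos*. Since both species were in the same droplet runs, transcripts of the absent species seen in a cell give a background for each gene, within the limit that the purity rule sets.

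The sums of UMIs on own-species genes were 9381075 and 9436158 in *D. virilis* cells of replicates 1 and 2, and 7134003 and 11221281 in *D. melanogaster* cells. The median cell held 3436 and 6114.5 own-species UMIs in *D. virilis* and 4273.5 and 6267.5 in *D. melanogaster*, a gap smaller than that between the libraries, and one that turned when cells were required to be 95% pure (34.5 UMIs higher in *D. virilis* on average over the libraries). After thinning every cell with at least 3000 own-species UMIs to exactly 3000, the median number of genes was 972 and 917 in *D. virilis* cells (1054 and 700 cells) and 959.5 and 967 in *D. melanogaster* cells (746 and 820 cells), with overlapping ranges. The median cell had 96.6% and 98.1% own-species UMIs in *D. virilis* and 97.9% and 99.1% in *D. melanogaster*. The purity rule selected the cells on this same share, so these medians cannot test the mixture the labels name. The 2 libraries shared 5 barcodes. The shared-symbol genes took 7.81% and 7.66% of the UMIs of *D. virilis* cells and 6.11% and 6.36% of those of *D. melanogaster* cells. Of 43 embryonic cell type markers only 9 are among the shared-symbol genes, so cell types were not named from them. The 2 shared markers of ventral neurogenic ectoderm, *sog* and *sim*, summed to 49.5 and 57.7 CPM (counts per 1000000 own-species UMIs) in *D. virilis* cells and 382.5 and 391 CPM in *D. melanogaster* cells. The 3 shared pole cell markers, *nos*, *osk* and *ovo*, summed to 36.2 and 30.7 CPM in *D. virilis* cells and 36.6 and 35.9 CPM in *D. melanogaster* cells. Within this sum *osk* was higher and *ovo* lower in *D. virilis* cells, so it does not measure the share of pole cells.

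Levels were compared as CPM, with edgeR's quasi-likelihood test on the 4 sums. Of 211 shared-symbol genes with enough counts, 63 (29.9%) were higher and 87 (41.2%) lower in *D. virilis* cells at a false discovery rate of 0.05, 150 (71.1%) in all, and 41 and 66 of them differed by more than 2-fold. The other 45 genes, at 3.03 CPM or less in every sum, were not tested. Shares that high are the background for every group of genes described here. The log2 ratios of replicates 1 and 2 correlated across the tested genes with a Pearson r of 0.96 and a Spearman rho of 0.94, a description in which both replicates share the annotation of each species. In a sum over cells, as in bulk, fewer cells of a type and less RNA per cell cannot be told apart.

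Genes that pattern the embryo along its axes were mostly at similar or lower levels in *D. virilis* cells. Of 28 tested genes in the lists of dorsoventral, gap and terminal, pair-rule, segment polarity, Hox and neural genes, 3 were higher, 16 lower and 9 not called, with a median log2 ratio (CPM + 1) of -0.71, against -0.14 for all tested genes. Among all 211 tested genes, 29.9% were higher and 41.2% lower, the shares against which these lists and their parts are to be read. In bulk the same 28 genes had a median log2 ratio of 0.45, against 0.49 for all tested genes. Of the 16 lower genes, 11 were within 2-fold of each other in bulk, 4 were over 2-fold higher and 1 was over 2-fold lower in *D. virilis*.

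**Figure D1:**
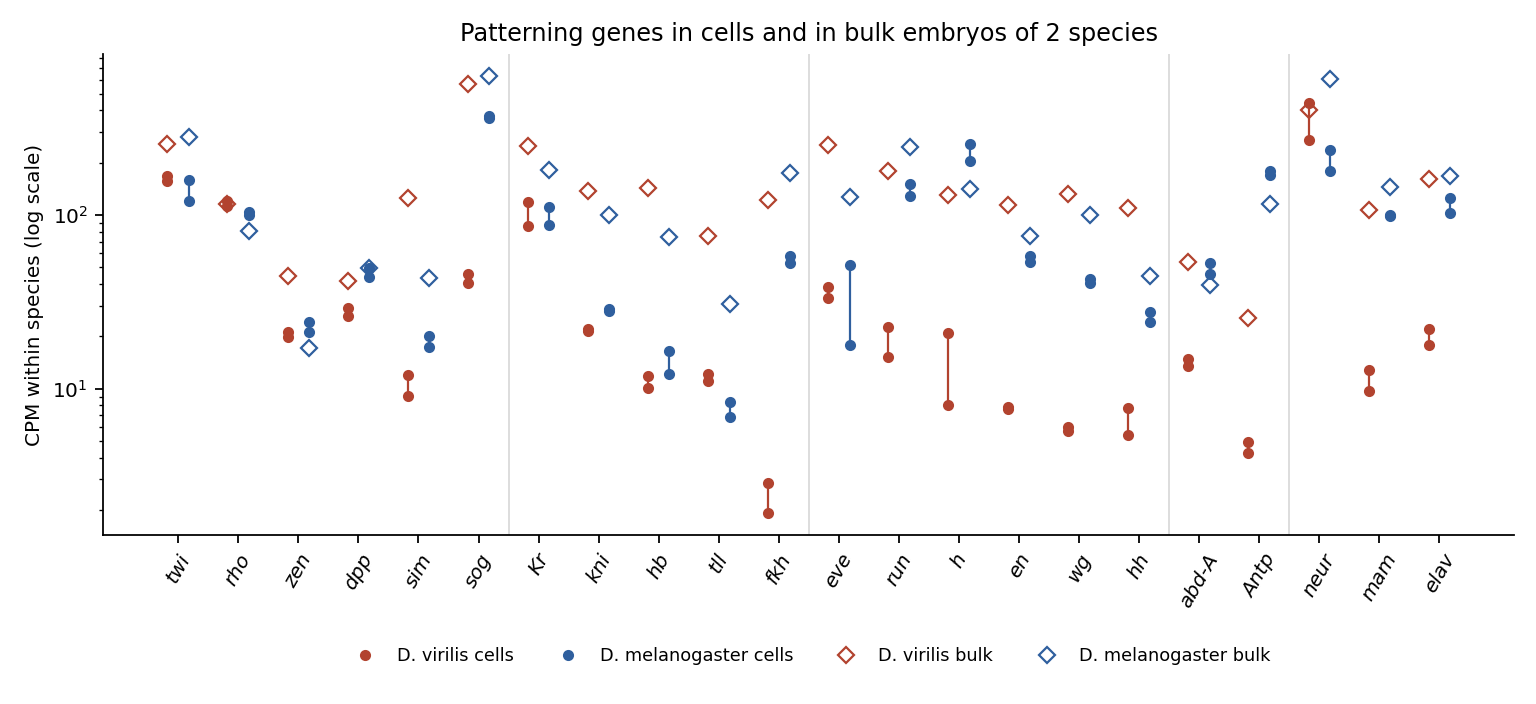
Levels of 22 patterning genes as CPM within species on a log scale, with *D. virilis* left (red) and *D. melanogaster* right (blue) for each gene. Filled points are the 2 Drop-seq libraries joined by a line, and open diamonds are the single bulk library of the species. For *sog*, *fkh*, *h*, *en*, *wg* and *Antp* the red points lie far below the blue ones, while the red and blue diamonds of *sog* (569 and 632 CPM) lie close together.

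In the dorsoventral group, 3 of 6 genes were lower and 3 were not called. The BMP inhibitor *sog* (X:15603283-15633434 in the *D. melanogaster* BDGP6.54 annotation, minus strand, overlapping no other gene) had 40.4 and 45.7 CPM in *D. virilis* cells, against 362 and 374 CPM in *D. melanogaster* cells. The libraries of the species lie far apart, and *sog* fell by 3.10 on the log2 scale in *D. virilis* cells (SE 0.15, adjusted p = 1.14e-05, edgeR). In the bulk libraries *sog* had 569 CPM in *D. virilis* and 632 CPM in *D. melanogaster* embryos, a ratio of 0.901 (95% counting interval 0.859 to 0.945), a far smaller gap than in cells. The BMP ligand *dpp* had 29.2 and 26.1 CPM in *D. virilis* cells and 49.5 and 44.0 CPM in *D. melanogaster* cells (log2 change -0.76, SE 0.15, adjusted p = 0.00426). The midline regulator *sim* had 9.06 and 12.0 CPM in *D. virilis* cells and 20.2 and 17.3 CPM in *D. melanogaster* cells (log2 change -0.83, SE 0.20, adjusted p = 0.01), while its bulk levels were 126 CPM in *D. virilis* and 43.1 CPM in *D. melanogaster* embryos. The mesodermal factor *twi* was at 168 and 156 CPM in *D. virilis* cells and 120 and 159 CPM in *D. melanogaster* cells, with overlapping libraries (log2 change 0.21, adjusted p = 0.313). *rho*, which encodes a protease that releases EGF receptor ligands, was at 119.7 and 113 CPM in *D. virilis* cells and 100.6 and 104 CPM in *D. melanogaster* cells (log2 change 0.19, adjusted p = 0.247), and the dorsal homeobox gene *zen* at 21.2 and 19.8 CPM in *D. virilis* cells and 21.3 and 24.1 CPM in *D. melanogaster* cells (log2 change -0.15, adjusted p = 0.435). With DESeq2, whose scaling lifts the median ratio of the tested genes by 0.21, *twi* (0.43, adjusted p = 0.0416) and *rho* (0.40, adjusted p = 0.0431) passed as higher, and *sim* did not pass (-0.61, adjusted p = 0.1). Without replicate 1 the log2 ratio (CPM + 1) of *sim* was -0.50. With the edgeR TMM scaling, which lifts that median by 0.15, *rho* also passed (0.34, adjusted p = 0.031), and with *D. melanogaster* cells of all 7 Drop-seq libraries *zen* passed as lower (-0.48, adjusted p = 0.038).

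Among the gap and terminal genes, 2 of 7 were higher, 2 lower and 3 not called. The trunk gap gene *Kr* was among the 5 most even genes with at least 50 CPM in both species, at 119 and 86.0 CPM in *D. virilis* cells and 112 and 87.9 CPM in *D. melanogaster* cells (log2 change 0.04, SE 0.21). The gap genes *kni* (log2 change -0.38, adjusted p = 0.0517) and *hb* (log2 change -0.40, adjusted p = 0.139) were not called, and *kni* passed as lower with all 7 libraries (-0.62, adjusted p = 0.016). The terminal gene *tll* had 11.1 and 12.2 CPM in *D. virilis* cells and 6.87 and 8.38 CPM in *D. melanogaster* cells and was called higher (log2 change 0.60, adjusted p = 0.0322), although with sums of thinned counts its log2 change was 0.14 (adjusted p = 0.695) and with all 7 libraries 0.34 (adjusted p = 0.185). The gut-forming forkhead gene *fkh* had 1.92 and 2.86 CPM in *D. virilis* cells, against 58.3 and 52.6 CPM in *D. melanogaster* cells, a log2 change of -4.53 (SE 0.23, adjusted p = 1.22e-05). Its bulk levels were 121 CPM in *D. virilis* and 175 CPM in *D. melanogaster* embryos, a ratio of 0.695 (95% counting interval 0.629 to 0.766). The POU gene *pdm2* fell by 2.85 in *D. virilis* cells, to 3.94 and 2.97 CPM, against 25.5 and 24.6 CPM in *D. melanogaster* cells, and went the other way in bulk, with 166 CPM in *D. virilis* and 54.2 CPM in *D. melanogaster* embryos.

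Of 3 pair-rule genes 2 were lower and 1 was not called, and all 3 segment polarity genes were lower. *h*, a bHLH repressor, had 21.0 and 8.05 CPM in *D. virilis* cells and 256 and 204 CPM in *D. melanogaster* cells (log2 change -3.98, SE 0.41, adjusted p = 0.000187), and *run* 22.5 and 15.2 CPM in *D. virilis* cells and 128 and 150 CPM in *D. melanogaster* cells (log2 change -2.88). Bulk levels of *h* were 131 CPM in *D. virilis* and 142 CPM in *D. melanogaster* embryos. *eve*, which was not called, had 38.4 and 33.3 CPM in *D. virilis* cells and 51.4 and 17.9 CPM in *D. melanogaster* cells, whose libraries lie on either side of the *D. virilis* values. The homeobox gene *en*, the Wnt ligand *wg* and the Hedgehog ligand *hh* fell by 2.85, 2.83 and 1.98 on the log2 scale, at 5.44 to 7.84 CPM in the *D. virilis* libraries and 24.3 to 57.9 CPM in the *D. melanogaster* libraries. In bulk, *en* had 114 CPM in *D. virilis* and 75.7 CPM in *D. melanogaster* embryos, *wg* 132 and 100.3 CPM, and *hh* 109.5 and 44.8 CPM.

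Among the Hox genes, 3 of 4 were lower and *lab* was not called. *Antp*, which specifies thoracic identity (3R:6896253-6999228, minus strand, overlapping 2 other genes), had 4.90 and 4.24 CPM in *D. virilis* cells and 180.1 and 169 CPM in *D. melanogaster* cells (log2 change -5.25, SE 0.18, adjusted p = 2.93e-06). Its bulk levels differed in the same direction, at 25.5 CPM in *D. virilis* and 115 CPM in *D. melanogaster* embryos. *abd-A* fell by 1.79 in *D. virilis* cells, to 14.8 and 13.6 CPM, against 45.4 and 52.8 CPM in *D. melanogaster* cells. *Ubx* had 49.1 and 30.1 CPM in *D. virilis* cells and 57.2 and 71.9 CPM in *D. melanogaster* cells and passed narrowly (log2 change -0.71, adjusted p = 0.0406). It did not pass with the library as a block (adjusted p = 0.0594) or with DESeq2 (adjusted p = 0.0618), TMM (adjusted p = 0.0777) or thinned counts (adjusted p = 0.0749), and its log2 ratio (CPM + 1) was -1.23 without replicate 1 and -0.21 without replicate 2.

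In the neural list, 1 of 5 genes was higher, 3 were lower and the proneural gene *sc* was not called. The Notch coactivator *mam* fell by 3.14 in *D. virilis* cells, to 12.8 and 9.64 CPM, against 98.4 and 100.1 CPM in *D. melanogaster* cells, and the neuronal RNA-binding protein gene *elav* by 2.51. The proneural gene *ac* had 10.1 and 7.31 CPM in *D. virilis* cells and 14.7 and 14.2 CPM in *D. melanogaster* cells (adjusted p = 0.0201, 0.174 with DESeq2 and 0.136 with thinned counts). *neur*, which encodes a ubiquitin ligase that promotes signalling by Notch ligands, had 442 and 272 CPM in *D. virilis* cells and 179.7 and 237 CPM in *D. melanogaster* cells (log2 change 0.78, SE 0.26, adjusted p = 0.0317). Replicate 1 of *D. virilis* stands above the other 3 sums, and with the library as a block the adjusted p was 0.0619. The log2 ratio (CPM + 1) of *neur* was 0.20 without replicate 1 and 1.29 without replicate 2.

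The 10 genes with the largest falls in *D. virilis* cells, among called genes whose libraries do not overlap and whose mean reaches 10 CPM in 1 of the species, were *Rh4*, *bru-3*, *Oda*, *oaf*, *Antp*, *fz*, *fkh*, *Mal-A5*, *h* and *aop*. *Rh4*, a photoreceptor opsin gene, had 1 UMI in all *D. virilis* cells against 540 in *D. melanogaster* cells, a ratio of CPM of 0.00181 (95% counting interval 4.6e-05 to 0.0101), and *bru-3*, for an RNA-binding protein, 2 against 401 UMIs. In bulk these genes had 1 and 2 reads in *D. virilis* and 79 and 123 reads in *D. melanogaster* embryos. *Rh4* overlaps 3 other *D. melanogaster* genes, among them *sina*, and *bru-3* overlaps 7. Whether reads of the overlapping genes were counted for *Rh4* or *bru-3* was not tested. *Oda*, which encodes the ornithine decarboxylase antizyme, had 13.9 and 15.2 CPM in *D. virilis* cells and 1187 and 1365 CPM in *D. melanogaster* cells, a log2 change of -6.46, and it overlaps 8 other *D. melanogaster* genes. In bulk *Oda* had 77.8 CPM in *D. virilis* and 769 CPM in *D. melanogaster* embryos. For the Wnt receptor gene *fz*, which fell by 4.99 in *D. virilis* cells, the bulk levels were 65.98 CPM in *D. virilis* and 59.8 CPM in *D. melanogaster* embryos. For the ETS repressor gene *aop*, which fell by 3.97 in *D. virilis* cells, they were 259 and 405 CPM.

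The 10 largest rises by the same rule were *CAHbeta*, *140up*, *Gpi1*, *EF-G2*, *Lhr*, *Obp99a*, *asun*, *Atg5*, *Ddx1* and *eIF-3p40*. *CAHbeta*, for a beta carbonic anhydrase, had 10.9 and 13.9 CPM in *D. virilis* cells and 0 and 0.802 CPM in *D. melanogaster* cells, 233 against 9 UMIs, 25.2 times the CPM (95% counting interval 13.1 to 55.9). *140up* had 97.4 and 92.6 CPM in *D. virilis* cells and 17.2 and 18.8 CPM in *D. melanogaster* cells (log2 change 2.39, SE 0.15, adjusted p = 2.06e-05). *Obp99a*, of the odorant-binding protein family, had 276 and 265 CPM in *D. virilis* cells and 67.6 and 66.1 CPM in *D. melanogaster* cells (log2 change 2.02, SE 0.13). All of these but *eIF-3p40* were also higher in *D. virilis* bulk, with log2 ratios (CPM + 1) of 1.52 for *Obp99a* to 3.14 for *EF-G2*. *eIF-3p40* had 339 CPM in *D. virilis* and 426 CPM in *D. melanogaster* bulk, while its cell levels were 1054 and 1152 CPM in *D. virilis* and 364 and 370.3 CPM in *D. melanogaster*.

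Groups of housekeeping genes were named from the members themselves, after their values were known. Among all tested genes, 29.9% were higher and 41.2% lower in *D. virilis* cells. Of 8 cytoplasmic ribosomal protein genes, 6 were higher in *D. virilis* cells and 2, *RpS3A* and *sta*, were not called, with log2 ratios (CPM + 1) between -0.04 and 1.13. *RpS3* had 7319 and 8017 CPM in *D. virilis* cells and 2953 and 4070 CPM in *D. melanogaster* cells (log2 change 1.13, SE 0.18, adjusted p = 0.00143), and *RpL32* 7356 and 7849 CPM in *D. virilis* cells and 3922 and 4697 CPM in *D. melanogaster* cells. In bulk the same 8 genes lay on the other side, with log2 ratios between -3.45 and -2.82, and *RpS3* had 285 CPM in *D. virilis* and 2252 CPM in *D. melanogaster* embryos. The cell level of the 8 genes was above the bulk level by a median log2 ratio of 5.40 in *D. virilis* and 1.75 in *D. melanogaster*. *RpL14* did not pass with the library as a block (adjusted p = 0.0873). Of 6 genes for subunits of the translation factor eIF3, 4 were higher in *D. virilis* cells and 2 were not called, while all 6 bulk ratios were below 0, from -0.78 to -0.24. *eIF3-S9* was among the 4 and did not pass with the block (adjusted p = 0.0733). The chaperone gene *Hsp83* was lower in *D. virilis* cells, at 63.7 and 62.9 CPM, against 127 and 100.3 CPM in *D. melanogaster* cells. Besides *Kr*, *RpS3A* and *sta*, the 5 most even genes were *ATPsyn-beta*, of the mitochondrial ATP synthase, and *gbb*, a BMP ligand gene, with log2 changes of 0.02 and 0.13. The sign of *RpS3A* (-0.04) turned with either of the other scalings, which add 0.15 or 0.21 to the median.

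Sex determination and dosage compensation depend in *D. melanogaster* on the switch gene *Sxl*, its splicing targets and partners, and the MSL complex that acts on the male X. Of 9 such genes, 3 were higher, 4 lower and 2 not called, near the shares of all tested genes (29.9% higher and 41.2% lower). The splicing regulator gene *tra* had 88.6 and 69.6 CPM in *D. virilis* cells and 39.0 and 37.9 CPM in *D. melanogaster* cells (log2 change 1.04, adjusted p = 0.00146), whereas its partner *tra2* had 9.70 and 9.01 CPM in *D. virilis* cells and 40.2 and 32.6 CPM in *D. melanogaster* cells (log2 change -1.95). Within the MSL complex, *msl-1* was higher in *D. virilis* cells (log2 change 1.17), and *msl-2*, which *D. melanogaster* translates only in males, had 1.81 and 1.59 CPM in *D. virilis* cells and 17.1 and 22.0 CPM in *D. melanogaster* cells (log2 change -3.52). Bulk levels of *msl-2* were 122 CPM in *D. virilis* and 139 CPM in *D. melanogaster* embryos. *msl-3* fell by 1.19 in *D. virilis* cells and was higher in bulk, at 174 CPM in *D. virilis* and 68.1 CPM in *D. melanogaster* embryos. *Sxl* itself had 511 and 342 CPM in *D. virilis* cells and 588 and 566 CPM in *D. melanogaster* cells (log2 change -0.44, adjusted p = 0.0949), and passed as lower with *D. melanogaster* cells of all 7 Drop-seq libraries (adjusted p = 0.0198) or with cells of at least 3000 UMIs (adjusted p = 0.0344).

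Among 7 germ plasm and maternal genes, 3 were higher, 1 was lower and 3 were not called, where 29.9% of all tested genes were higher and 41.2% lower. The translational repressor gene *nos* had 10.8 and 8.37 CPM in *D. virilis* cells and 9.81 and 9.98 CPM in *D. melanogaster* cells. *osk*, which organises germ plasm, had 11.4 and 6.89 CPM in *D. virilis* cells and 1.12 and 1.96 CPM in *D. melanogaster* cells (log2 change 2.49, SE 0.39, adjusted p = 0.00137), and *exu*, a factor of maternal mRNA localisation, 9.27 and 10.1 CPM in *D. virilis* cells and 2.80 and 1.96 CPM in *D. melanogaster* cells (log2 change 2.06, adjusted p = 0.000514). In bulk *osk* had 31.5 CPM in *D. virilis* and 2.42 CPM in *D. melanogaster* embryos, and *exu* 44.1 and 2.42 CPM. The anterior determinant *bcd* was at 22 UMIs in *D. virilis* cells and 1 UMI in *D. melanogaster* cells, 21.5 times the CPM (95% counting interval 3.47 to 886). The zinc-finger gene *ovo* was lower in *D. virilis* cells, at 14.1 and 15.5 CPM, against 25.6 and 24.0 CPM in *D. melanogaster* cells (log2 change -0.75, adjusted p = 0.00516, and 0.0929 with DESeq2).

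Several groups were near the limit of detection. Of 18 odorant-binding protein genes, 5 could be tested, 3 of them higher (*Obp99a*, *Obp19d* and *Obp49a*) and 2 lower (*Obp44a* and *Obp59a*) in *D. virilis* cells. *Obp99a* stood apart at 265 CPM or more in *D. virilis* cells, while the other 17 were at 3.82 CPM or less in every sum. Of 10 microRNA hairpin genes, 3 could be tested and 0 were called by edgeR, with levels of at most 2.13 CPM in every sum, and of 4 muscle protein genes only *up* could be tested, higher in *D. virilis* cells (adjusted p = 0.0258, and 0.0526 with the library as a block). Among genes of later stages, the eye gene *ro* had 7.25 and 4.98 CPM in *D. virilis* cells and 0.280 and 0.356 CPM in *D. melanogaster* cells, and *per* was not called.

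**Figure D2:**
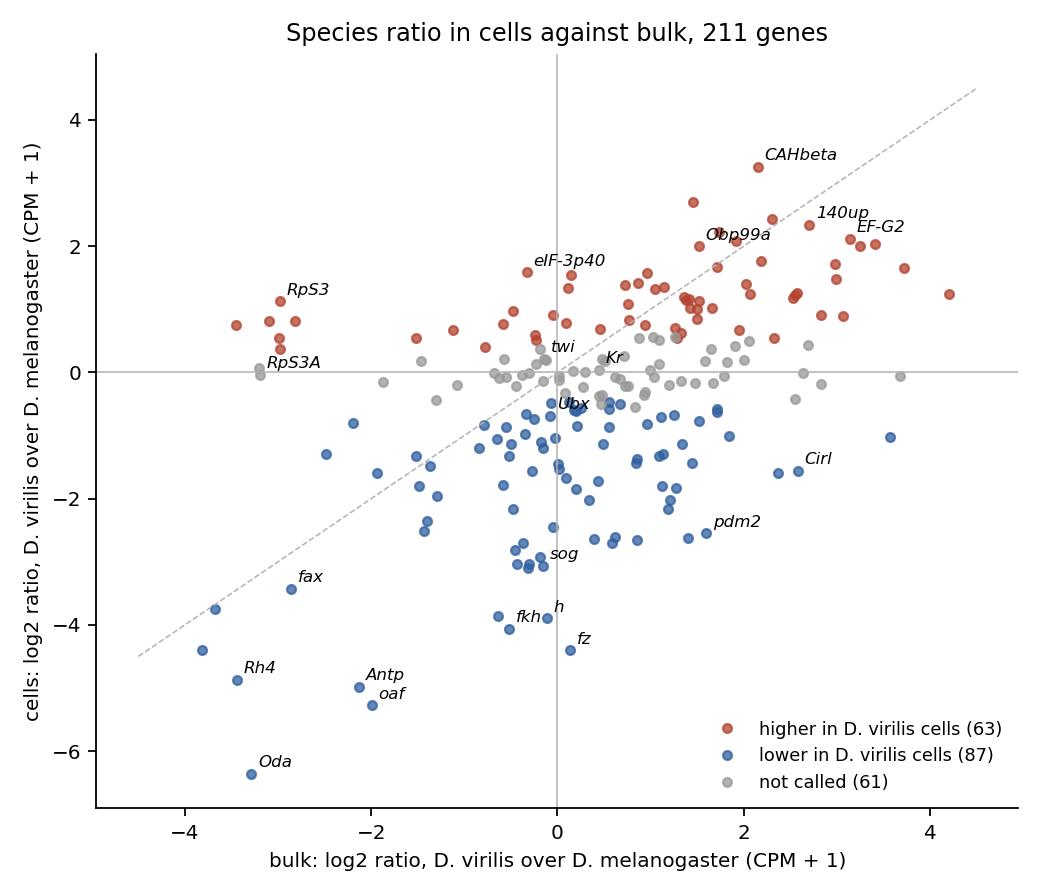
Each point is 1 of 211 tested genes, with the log2 ratio (CPM + 1) of *D. virilis* over *D. melanogaster* in bulk on the x axis and in cells on the y axis, coloured by the call in cells, and with a dashed line where the ratios are equal. Ribosomal protein genes such as *RpS3* lie at the upper left, and *sog*, *h*, *fkh* and *fz* lie near 0 in bulk and far below 0 in cells.

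The species ratios of cells were then set beside those of bulk for all 211 genes. They correlated across genes with a Pearson r of 0.46 and a Spearman rho of 0.44, a description over genes that share libraries, annotation and depth. Of the 63 genes higher in *D. virilis* cells, 38 were over 2-fold higher and 8 over 2-fold lower in *D. virilis* bulk. Of the 87 lower genes, 16 were over 2-fold lower in *D. virilis* bulk, 52 were within 2-fold and 19 were over 2-fold higher. In bulk as such, 37.8% of 225 shared-symbol genes with at least 1 CPM in either species were over 2-fold higher in *D. virilis* and 15.6% over 2-fold lower, with 1 library per species and no test. The 87 lower genes had a median log2 ratio of cells over bulk of -2.53 in *D. virilis* and -0.75 in *D. melanogaster*, against -1.75 and -0.67 for all 211 genes. For the 63 higher genes these medians were -0.32 and -0.41. Cell and bulk levels of the 211 genes correlated with a Spearman rho of 0.62 in *D. virilis* and 0.84 in *D. melanogaster*.

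In 15 called genes the species differed by more than 2-fold in opposite directions in cells and in bulk. Of these, 14 were lower in *D. virilis* cells and higher in *D. virilis* bulk, among them *Cirl*, an adhesion receptor gene, *trx*, a chromatin regulator, *salm*, a zinc-finger factor, *rst*, *pdm2*, *hh* and *msl-3*. *Cirl* averaged 13.9 CPM in *D. virilis* and 42.8 CPM in *D. melanogaster* cells, and had 662 and 110 CPM in the bulk libraries. *salm* averaged 51.1 CPM in *D. virilis* and 127 CPM in *D. melanogaster* cells, and had 555 and 252 CPM in bulk. The 1 gene with the opposite order was *RpS3*.

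Length moved with these calls. In the *D. melanogaster* BDGP6.54 annotation, the longest 3′ UTR had a median of 829 nt for the genes lower in *D. virilis* cells, 279.5 nt for the higher ones and 476.5 nt for those not called, and the longest transcript a median of 3071, 1543 and 2700.5 nt. Across 207 genes with a length, the species ratio fell with 3′ UTR length in cells (Spearman rho -0.39) and hardly in bulk (-0.08), again a description over genes. The Drop-seq reads start from the 3′ end of the transcript, per the labels' protocols, and the bulk reads do not. The *D. virilis* annotation is not given in the sources used here, and its part in the result was not tested. Of the tested genes, 123 overlap another *D. melanogaster* gene, 53 of the 87 lower genes, 31 of the 63 higher genes and 39 of the 61 not called, and where the counting did not use strand their reads could be split.

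Spread between cells was measured as the variance-to-mean ratio of UMIs in cells thinned to 3000 own-species UMIs, and read against genes of like mean in the same species and library, so that 1 stands for a gene as variable as its peers. For 144 genes the mean reached 0.02 UMI per cell in all 4 sets of cells, and 11 of these were over 25% above their peers in every set. These 11 were *nos*, *sog*, *Hsp83*, *rho*, *twi*, *zen*, *salm*, *dap*, *Obp99a*, *Kr* and *Sxl*. Over the 144 genes, 39 had more spread in *D. virilis* cells and 41 less in both libraries. A random order of the species in each library would put 25% of the genes in each class, near both counts. The counts therefore do not show a species difference in spread. The ratios of the species correlated with a Pearson r of 0.62 and a Spearman rho of 0.53 across genes. With 2 libraries per species an exact permutation test cannot give a p below 0.333, so spreads are given as values.

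**Figure D3:**
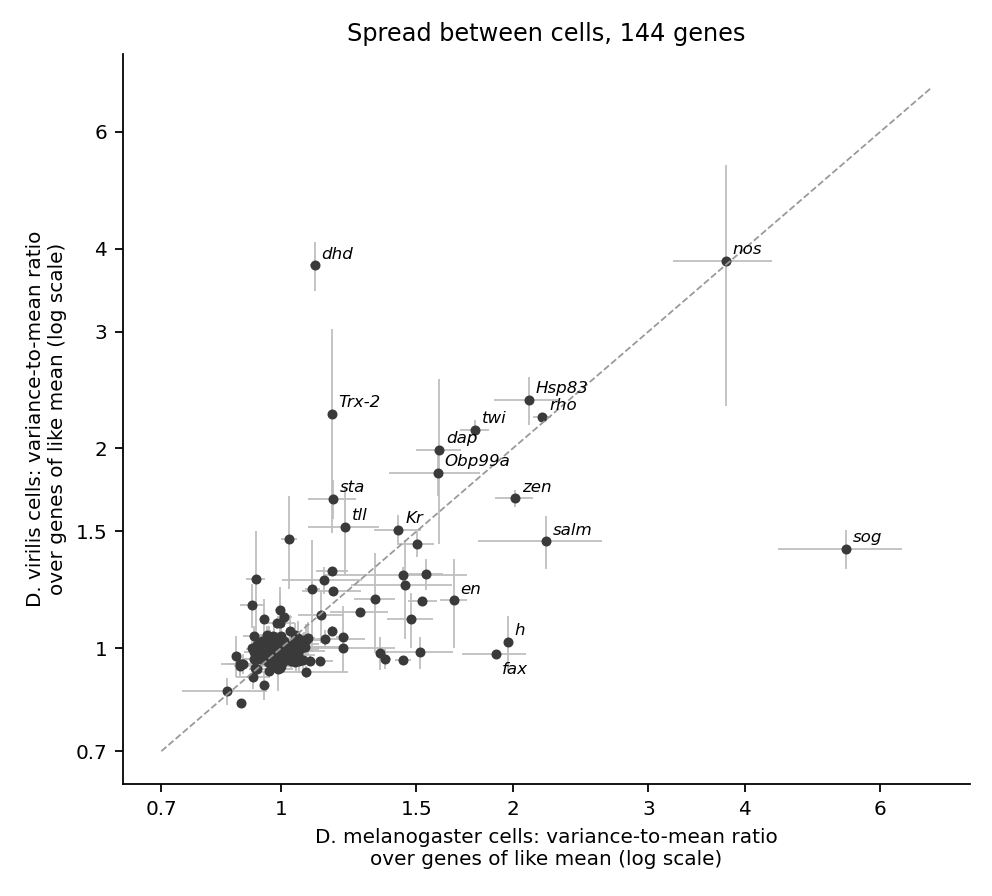
Spread between cells of 144 genes, as the variance-to-mean ratio divided by that of genes of like mean, for *D. virilis* (y axis) and *D. melanogaster* cells (x axis) on log scales. Points are means of 2 libraries, bars span the libraries, and the dashed line marks equal spread. *dhd* and *Trx-2* lie above the line, *sog* lies far to its right, and *nos*, *Hsp83* and *rho* lie near it.

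The 5 genes with the largest variance-to-mean ratio in *D. virilis* cells were *nos*, *dhd*, *exu*, *Hsp83* and *rho*. *nos* had ratios to its peers of 5.34 and 2.32 in *D. virilis* cells and 3.23 and 4.34 in *D. melanogaster* cells, so the species overlap. *rho* had 2.24 and 2.22 in *D. virilis* cells and 2.13 and 2.24 in *D. melanogaster* cells, and *twi* 2.21 and 2.06 in *D. virilis* cells and 1.87 and 1.71 in *D. melanogaster* cells. The thioredoxin gene *dhd* differed, with 3.46 and 4.09 in *D. virilis* cells and 1.09 and 1.12 in *D. melanogaster* cells, at mean levels of 0.0323 and 0.0643 UMI per *D. virilis* cell and 0.0295 and 0.0561 UMI per *D. melanogaster* cell. The mean levels of *dhd* overlap between the species, while its spread was higher in *D. virilis* cells in both libraries. *dhd* was named for its large ratio in *D. virilis* cells, and 39 of the 144 genes had more spread there in both libraries. Its relative *Trx-2* had 1.49 and 3.02 in *D. virilis* cells and 1.18 and 1.15 in *D. melanogaster* cells. These paralogs could share reads.

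In *D. melanogaster* cells the 5 genes were *sog*, *nos*, *fax*, *Antp* and *salm*. *sog* had ratios to its peers of 1.32 and 1.51 in *D. virilis* cells and 6.404 and 4.42 in *D. melanogaster* cells. These ratios were taken at unlike levels, since *sog* was lower in *D. virilis* cells by 3.10 on the log2 scale. A variance-to-mean ratio can rise with the mean, and how far the gap in spread goes with the gap in level was not tested. *sog* was detected in 9.87% and 11.1% of *D. virilis* cells and 32.0% and 32.7% of *D. melanogaster* cells. As background, *D. virilis* *sog* was found in 0.268% and 0.244% of *D. melanogaster* cells and *D. melanogaster* *sog* in 3.42% and 2.14% of *D. virilis* cells. The shares in cells of the own species were above these. Only cells that passed the purity rule were counted, so these values do not measure all free RNA. *fax*, which takes part in axon formation later in development, was detected in 69.2% and 54.9% of *D. virilis* cells and 99.7% and 99.02% of *D. melanogaster* cells, and *D. melanogaster* *fax* in 26.4% and 12.4% of *D. virilis* cells. Its levels were 412 and 278 CPM in *D. virilis* cells and 4021 and 3415 CPM in *D. melanogaster* cells, and its bulk levels 447 CPM in *D. virilis* and 3242 CPM in *D. melanogaster* embryos. *Antp* had ratios near 1 in *D. virilis* cells (0.999 in each library) at a mean of 0.0133 and 0.0129 UMI per cell, and 2.19 and 2.28 in *D. melanogaster* cells at 0.528 and 0.513 UMI. A spread near that of peers at so low a mean says little, since few cells hold more than 1 UMI.

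Co-detection showed which genes shared cells, as the log2 odds ratio that a cell with a UMI of the first gene also held the second. The values are given per library and without a test. Of 9 pairs with separate domains, the log2 odds ratio was negative in both libraries for 6 in *D. virilis* and 5 in *D. melanogaster* cells, and in *D. virilis* 4 of the 9 pairs had 0 cells with both genes, where at most 1.91 were expected per library. With cells thinned to 1500 UMIs the negative pairs numbered 3 in *D. virilis* and 6 in *D. melanogaster*, and with 2 UMIs asked for detection 1 in *D. virilis* and 4 in *D. melanogaster*. For *dpp* and *sog* it was -1.01 and -1.99 in *D. virilis* cells and -2.50 and -1.89 in *D. melanogaster* cells, and for *zen* and *sog* -0.87 and -0.75 in *D. virilis* cells and -2.55 and -2.38 in *D. melanogaster* cells. The *D. virilis* values of *zen* and *sog* rest on 2 cells with both genes in each library, where 4.14 and 3.79 were expected from the product of the shares. For the gap genes *kni* and *Kr* it was -1.69 and -1.33 in *D. virilis* cells and -1.28 and 0.30 in *D. melanogaster* cells. For *abd-A* and *Antp* it was positive in *D. melanogaster* cells, at 0.44 and 0.35. There 25 and 30 cells held both genes, where 20.7 and 25.9 were expected. *Kr* and *tll* also had positive values in *D. melanogaster* cells, 0.69 and 0.20, on 5 and 4 cells with both genes. The proneural genes *ac* and *sc*, which share domains, had 4.17 and 3.36 in *D. virilis* cells and 5.11 and 3.09 in *D. melanogaster* cells, on 1 to 7 cells with both genes. The other pair with overlapping domains, *h* and *hb*, had -0.40 and -0.29 in *D. virilis* cells, on 1 and 0 cells with both genes, and 0.50 and 0.18 in *D. melanogaster* cells, on 10 and 13 cells.

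**Figure D4:**
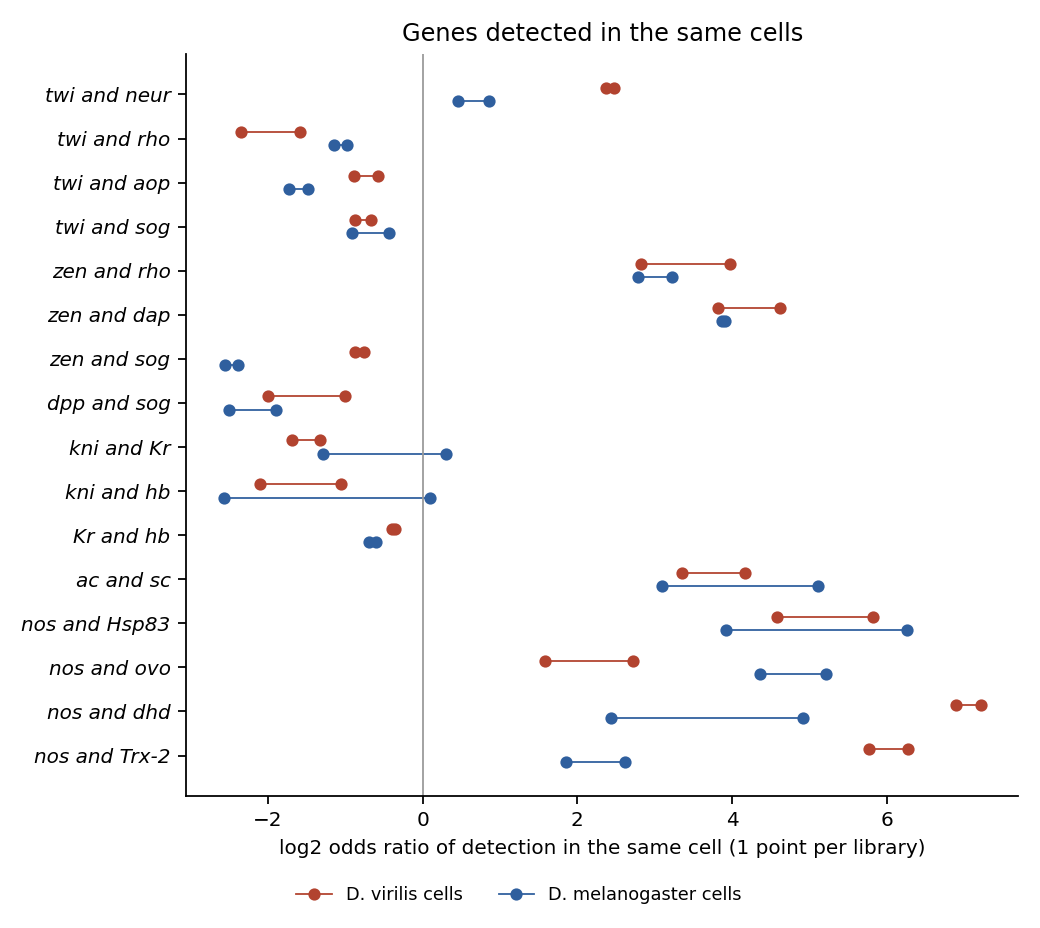
Log2 odds ratios of detection in the same thinned cell for 16 gene pairs, with 1 point per library and a line joining the libraries of a species, *D. virilis* (red) above *D. melanogaster* (blue). Pairs of *zen* with *rho* and *dap* lie right of 0 in both species, *twi* and *neur* lie further right in *D. virilis*, and *nos* with *dhd* and *Trx-2* also lie further right in *D. virilis*.

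A further 16 pairs with *twi*, *zen*, *nos* and *exu* were chosen after their values had been seen. Cells with the dorsal gene *zen* were enriched for *rho* and for the cyclin-dependent kinase inhibitor gene *dap* in both species. Of the *zen* cells, 61.9% and 79.4% held *rho* in *D. virilis* and 54.8% and 63.2% in *D. melanogaster*, against 18.48% and 18.9% of the other *D. virilis* cells and 14.8% and 15.2% of the other *D. melanogaster* cells. Likewise 31.0% and 38.2% of *D. virilis* *zen* cells and 32.3% and 31.6% of *D. melanogaster* *zen* cells held *dap*. These shares of *rho* and *dap* overlap between the species.

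Cells with *nos* were few, 12 and 11 of the thinned *D. virilis* cells (1.14% and 1.57%, exact 95% intervals 0.590 to 1.98% and 0.787 to 2.79%) and 10 and 15 of the *D. melanogaster* cells (1.34% and 1.83%, 0.645 to 2.45% and 1.03 to 3.00%). Most of them also held *Hsp83*, 11 and 8 in *D. virilis* and 10 and 12 in *D. melanogaster*. In *D. virilis*, 7 and 7 of the *nos* cells held *dhd* where 0.182 and 0.251 were expected, 7 and 7 held *Trx-2* where 0.364 and 0.330 were expected, and 9 and 5 held *osk* where 0.228 and 0.204 were expected. In *D. melanogaster*, 4 and 3 held *dhd* where 0.268 and 0.768 were expected, 1 and 1 held *Trx-2*, and 1 and 1 held *osk* where 0.0134 and 0.128 were expected. The share of *nos* cells with *dhd* was 58.3% (exact 95% interval 27.7 to 84.8%) and 63.6% (30.8 to 89.1%) in *D. virilis* and 40% (12.2 to 73.8%) and 20.0% (4.33 to 48.1%) in *D. melanogaster*, with intervals that overlap. *ovo* was found in 1 and 2 of the *D. virilis* and 6 and 10 of the *D. melanogaster* *nos* cells, and the desaturase gene *Desat1* in 3 and 4 of the *D. virilis* and 7 and 10 of the *D. melanogaster* *nos* cells. The maternal gene *exu* was found in 6 and 7 *D. virilis* and 5 and 1 *D. melanogaster* *nos* cells. Expected were 0.171 and 0.220 in *D. virilis* and 0.161 and 0.0183 in *D. melanogaster*, where only 1 thinned cell of replicate 2 held *exu*. Over the 7 libraries with *D. melanogaster* cells the log2 odds ratio of *nos* and *dhd* ran from 2.04 to 4.92 and that of *nos* and *Trx-2* from 0.95 to 2.83, against 7.21 and 6.90 and 5.77 and 6.28 in *D. virilis*. The species overlapped for *exu* (3.83 to 7.38, against 6.77 and 7.24 in *D. virilis*) and *osk* (3.41 to 7.86, against 7.93 and 6.08). They also overlapped for *Hsp83* (2.15 to 6.26, against 5.82 and 4.58) and *Desat1* (-0.33 to 3.88, against 1.65 and 2.22). For *ovo* the *D. virilis* values were lower (2.73 to 5.21, against 1.58 and 2.72).

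The *twi* cells were followed further by a comparison chosen after these data had been seen. Thinned counts of cells with and without a *twi* UMI were summed per species and library. On these sums edgeR tested 179 genes, *twi* left out, with each species in each library as a block and a *twi* term for each species. There were 259 and 146 *twi* cells in *D. virilis* (24.6% and 20.9% of thinned cells) and 145 and 178 in *D. melanogaster* (19.4% and 21.7%), and *twi* of the absent species was found in 1.21% and 0.610% of *D. melanogaster* and 1.14% and 0.143% of *D. virilis* cells. In *D. virilis*, 3 genes (1.68%) passed, *neur* higher and *rho* and *Obp99a* lower in *twi* cells. In *D. melanogaster*, 18 genes (10.1%) passed, these 3 among them in the same directions. The difference between the species passed for 1 gene (0.559%), *neur*. With full counts in place of thinned ones, 15 genes passed in *D. virilis*, 37 in *D. melanogaster* and 8 for the difference, and with all 7 libraries 6, 33 and 2.

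**Figure D5:**
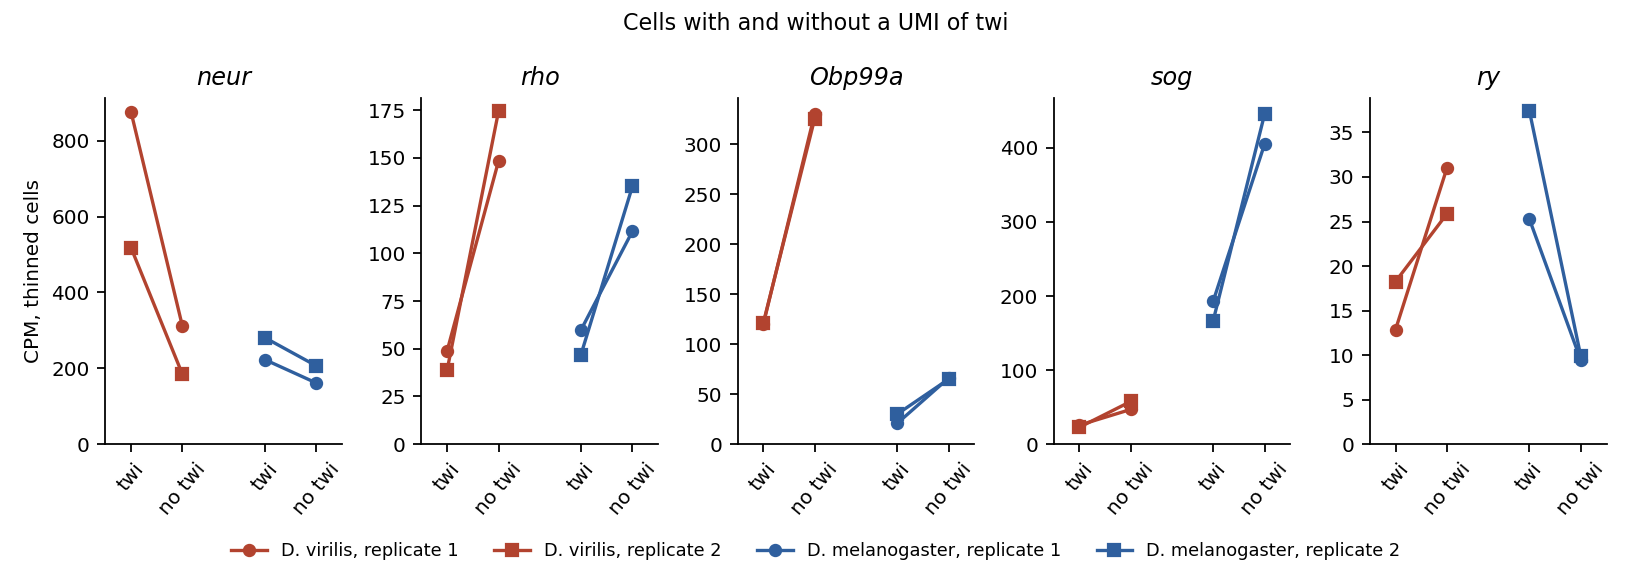
CPM of *neur*, *rho*, *Obp99a*, *sog* and *ry* in thinned cells with and without a *twi* UMI, for *D. virilis* (red, left) and *D. melanogaster* (blue, right) in replicates 1 (circles) and 2 (squares). *neur* is higher in *twi* cells in all 4 sets and the step is larger in *D. virilis*; *rho*, *Obp99a* and *sog* are lower in *twi* cells in all 4 sets, and *ry* differs in direction.

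In *twi* cells *neur* had 876 and 518 CPM in *D. virilis*, against 311 and 184 CPM in *D. virilis* cells without *twi*. In *D. melanogaster* it had 223 and 281 CPM in *twi* cells, against 161 and 207 CPM in cells without *twi*. The log2 change with *twi* was 1.49 (SE 0.05, adjusted p = 4.55e-07) in *D. virilis* and 0.45 (SE 0.08, adjusted p = 0.00747) in *D. melanogaster*, and the difference between them 1.04 (SE 0.09, adjusted p = 0.000521, edgeR). In this fit an SE can lie below the counting error of the UMIs, so these SEs and p-values can overstate the precision. Of the *twi* cells, 85.3% and 76.7% held *neur* in *D. virilis* and 50.3% and 51.1% in *D. melanogaster*. In the 5 single-species *D. melanogaster* libraries *neur* lay between 240 and 384 CPM in *twi* cells and between 201 and 243 CPM in the others, and the log2 odds ratio of *twi* and *neur* was between 0.40 and 1.14 in the 7 libraries with *D. melanogaster* cells, against 2.38 and 2.47 in *D. virilis*. The *neur* levels of *twi* cells and these log2 odds ratios were higher in both *D. virilis* libraries than in every *D. melanogaster* library analysed here, while the levels of cells without *twi* overlap between the species.

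*rho* fell with *twi* by 1.80 on the log2 scale in *D. virilis* (adjusted p = 0.000525) and by 1.24 in *D. melanogaster* (adjusted p = 0.00505). *Obp99a* fell with *twi* by 1.45 in *D. virilis* cells (120 and 121 CPM in *twi* cells, 330.4 and 326 CPM in the others; adjusted p = 3.02e-05) and by 1.34 in *D. melanogaster* cells (20.7 and 30.0 CPM in *twi* cells, 66 and 64.9 CPM in the others; adjusted p = 0.00505). The difference between the species was -0.11 (SE 0.26) for *Obp99a* and -0.57 (SE 0.30) for *rho*, neither of which passed. *sog* fell by 1.26 in *D. melanogaster* (adjusted p = 0.000197) and had a log2 change of -1.04 in *D. virilis* (adjusted p = 0.0915), where it is at a much lower level. The gap gene *kni* had log2 changes of 1.46 in *D. virilis* (adjusted p = 0.0915) and 1.51 in *D. melanogaster* (adjusted p = 0.0211). *ry*, the gene of xanthine dehydrogenase, had 12.9 and 18.3 CPM in *D. virilis* *twi* cells and 31.0 and 25.9 CPM in the other *D. virilis* cells. In *D. melanogaster* it ran the other way, with 25.3 and 37.5 CPM in *twi* cells and 9.43 and 9.87 CPM in the others. This difference of -2.66 (SE 0.50) did not pass (adjusted p = 0.0514), but did with full counts (adjusted p = 9.55e-09) and with all 7 libraries (adjusted p = 0.000343). The *twi* cells were deeper before thinning than the others in every set, with medians of 6094 and 11222.5 against 5442 and 8983 UMIs in *D. virilis* and 7538 and 11209 against 6127 and 8506.5 UMIs in *D. melanogaster*, and the part of depth in the results was not tested beyond thinning.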

How the data were processed

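Drop-seq, a droplet method that tags the 3′ end of each mRNA with a cell barcode and a UMI, was run on mixed and single-species suspensions of embryonic cells, and mRNA-seq on intact embryos. The deposited files hold UMI counts per gene and cell and read counts per gene for bulk. Per the submitters' processing notes, STAR, HTSeq and the BDGP6 genome were used. The *D. virilis* build and annotation and the strand setting of the counting are not given in the sources used here.

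Counts of own-species genes were summed over the cells of each species and library, with the own-species total as library size, and tested with edgeR 4.0.16 (quasi-likelihood, Benjamini-Hochberg adjustment, filterByExpr; R 4.3.3) over all shared-symbol genes at a false discovery rate of 0.05. The standard error (SE) of a log2 change is its size over the square root of edgeR's F statistic. In the *twi* comparison, which has few sums for its number of terms, it can lie below counting error. The SEs and p-values of that comparison can therefore overstate the precision. DESeq2 1.42.0 was an alternative. The edgeR test was tested on simulated data, where it found 52 of 60 genes changed 2-fold and made 4 false calls among 144 unchanged genes. The *twi* test found 19 of 20 genes whose species difference was set at 3-fold, with 0 false calls among 159. In both simulations the changed genes were drawn from those above a minimum expected count, and the same dispersion was set for all genes. The simulations therefore give no recovery rate for genes of few UMIs and do not cover differences of annotation between the species. Log2 ratios of bulk and of cells used a pseudocount of 1 CPM. Bulk totals were 5168603 reads on genes in *D. virilis* and 6608592 in *D. melanogaster* embryos, 70.8% and 44.0% of the listed reads; reads on no gene (17.0% and 45.2%) and reads aligned to several places (12.2% and 10.15%) stayed out. For spread and co-detection, cells were thinned to 3000 own-species UMIs, and 0.5 was added to each entry of an odds ratio table. Intervals are exact (95%) and cover counting error only. Python 3.11.15 with numpy 2.4.6, pandas 2.3.3, scipy 1.17.1 and matplotlib 3.10.9 was used.

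No doublet caller was run: mixtures of the species were removed by the purity rule and doublets within a species remain. Cells of both species share each library, so the replicate number pairs the sums by construction, although deviations from the species means did not correlate (r = -0.0463 over 211 genes). Of the 256 symbols, 252 matched the BDGP6.54 annotation, by symbol (227) or synonym (25).

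Named genes were the 10 largest changes in each direction among called genes with no overlap between libraries and a mean that reaches 10 CPM in 1 of the species, the 5 most even genes at 50 CPM or more, members of the gene lists with at least 10 CPM, and the 5 genes of largest spread in each species. Other genes named were chosen after their values were seen. The genes compared and the lists were chosen with earlier results of these data known. Groups named from the members themselves (ribosomal proteins, eIF3, sex determination, odorant-binding proteins, muscle proteins, microRNA hairpins), the 16 further pairs and the *twi* comparison were added after seeing the data.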

Additional observations from a re-analysis of the deposited data

Results flagged for a closer look

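Signal of *D. virilis* appeared in a library that holds *D. melanogaster* cells alone by its labels. Single-species replicate 3 listed 29225 UMIs on 4443 *D. virilis* genes, of 19650266 UMIs (0.149%), while replicates 4 to 7 listed none. A single barcode held 7048 of them, which is 95.4% of its 7387 UMIs. The other 22177 UMIs, 0.113% of the library, were spread over the remaining cells, and 1490 of 1585 barcodes held at least 1. Replicate 3 enters only the values from all 7 libraries, and the source of these UMIs was not tested.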

How the results depend on the processing

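With the library as a replicate block, 57 genes were higher and 82 lower in *D. virilis* cells, against 63 and 87 without it, with 11 calls lost and 0 gained. *Desat1*, *Pgam5*, *SAK*, *cbt*, *e(r)* and *ewg* were lost besides the genes named above. The TMM scaling gave 72 higher and 79 lower, DESeq2 70 and 69, no filter on low counts 67 and 89, and all 7 libraries 69 and 96. No gene called in both fits turned direction under these alternatives. Leaving out a replicate leaves 1 library per species, so no count of called genes was possible. Genes with more spread in *D. virilis* (39 in both libraries) numbered 71 to 74 when 1 replicate was left out, and those with less (41) 75 to 76, where agreement of the libraries is no longer asked. Those with less spread numbered 26 at 1500 UMIs and 27 at a mean of at least 0.05 UMI. The genes that reach the mean limit change with these settings, so these counts and the 41 are not shares of the same 144 genes. Separate-domain pairs with a negative log2 odds ratio in *D. virilis* numbered 3 at 1500 UMIs and 1 where 2 UMIs were asked for detection, against 6. The difference in median UMIs per cell was 34.5 at 95% purity, against -495.2. Genes that changed with *twi* numbered 15 in *D. virilis*, 37 in *D. melanogaster* and 8 for the difference with full counts, and 6, 33 and 2 with all 7 libraries. The causes were not tested. Among tested values of single genes, 440 kept their side of the threshold under an alternative, 11 lost it and 11 gained it. With 1 replicate left out, the log2 ratio (CPM + 1), which has no test, was set against edgeR's log2 change. Of these, 70 differed by no more than 1 SD between the replicates and 42 by more. The change of measure enters this count, so the 42 do not show dependence on a replicate. For *dpp*, counted among the 42, the ratios were -0.734 without replicate 1 and -0.741 without replicate 2, both on the same side of edgeR's -0.756. Depth limits the 45 untested genes and all co-detection of rare genes, and the single bulk library per species allows no test.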
